A study of Mus musculus with 16 samples.

Results

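The 10 genes described here belong to signalling by tumour necrosis factor (TNF). Tnfaip3 encodes the ubiquitin-editing enzyme A20, Tnip1 and Tnip3 its binding partners, Birc3 a ubiquitin ligase and Traf1 an adaptor. The others are the receptors Tnfrsf1a and Tnfrsf1b and the TNF-inducible genes Tnfaip2, Icam1 and Sod2. All 10 were taken by gene symbol from the deposited count table and were found among its 35275 genes. All 10 were also among the 13080 genes whose counts were high enough for testing. The libraries came from cultured bone marrow macrophages of C57BL/6 mice, all of which carried floxed Smad7 alleles (Smad7 fl/fl) and all of which had received tamoxifen. There were 4 groups of 4 libraries: KO TGF-β1, KO untreated, fl/fl TGF-β1 and fl/fl untreated. The KO mice also carried CAGGCre-ER, a tamoxifen-activated Cre recombinase under the broadly active CAGG promoter, so deletion was not limited to macrophages, while the fl/fl mice were littermates without Cre. Tamoxifen was injected at 20 mg/kg on 5 consecutive days into mice aged 1 month, which were killed 2 weeks afterwards. Tibial marrow cells grew with 15% serum and colony-stimulating factor 1, first at 12 ng/ml for 24 hours and then, as non-adherent cells replated, at 120 ng/ml for 48 hours. Confluent cells were kept for about 12 hours without serum, and the treated ones then had TGF-β1 at 10 ng/ml for 4 hours. No TNF or other inflammatory stimulus is named in the labels. Smad7 is an inhibitory Smad that dampens TGF-β receptor signalling, and the comparisons ask how these genes responded to TGF-β1 in KO and in fl/fl cultures.

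When TNF binds its receptor Tnfrsf1a, adaptors and ubiquitin ligases assemble on the receptor and build ubiquitin chains that recruit kinases, and these release the transcription factor NF-κB. NF-κB switches on inflammatory genes and also the genes of its own inhibitors. A20 is one such inhibitor: with the ubiquitin-binding proteins of the TNIP family it dismantles or masks these ubiquitin chains. In macrophages this feedback limits responses to TNF and to Toll-like receptor ligands, and mouse macrophages that lack A20 respond excessively.

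In mm10 coordinates of the deposited table, Tnfaip3 (ENSMUSG00000019850) lies on the minus strand of chromosome 10 from 19000910 to 19015657. Tnip1 (ENSMUSG00000020400) lies on the minus strand of chromosome 11 from 54910785 to 54962917, and Tnip3 (ENSMUSG00000044162) on the plus strand of chromosome 6 from 65590398 to 65634040. Birc3 (ENSMUSG00000032000) lies on the minus strand of chromosome 9 from 7848699 to 7873186, and Traf1 (ENSMUSG00000026875) on the minus strand of chromosome 2 from 34941750 to 34961772. Tnfrsf1a (ENSMUSG00000030341) lies on the plus strand of chromosome 6 from 125349362 to 125362484, and Tnfrsf1b (ENSMUSG00000028599) on the minus strand of chromosome 4 from 145213463 to 145246870. Tnfaip2 (ENSMUSG00000021281) lies on the plus strand of chromosome 12 from 111442469 to 111455018, Icam1 (ENSMUSG00000037405) on the plus strand of chromosome 9 from 21015960 to 21028797, and Sod2 (ENSMUSG00000006818) on the plus strand of chromosome 17 from 13007839 to 13018119. All are protein-coding, and a count covers a whole gene. In GENCODE M21, exons of Tnfaip2 and Icam1 overlap exons of Gm40578 and Gm47079 on the opposite strand. Use of strand in counting is not stated, so reads of these pairs cannot be told apart.

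Members of the set have been studied as targets of NF-κB, whose binding sequence is known as the κB motif. The letters GGAAANNCC, a κB-like motif chosen after the promoters had been read, were searched on both strands in RefSeq promoter windows (GRCm38.p6) of 250 bases before and 50 bases after each transcription start. They occur in 5.82% of the 32851 windows of all genes, and 0.253% hold 2 or more, overlapping matches counted apart. All 10 genes had a window, with 11 windows in total, because Tnfaip3 has 2 starts. A match was held by 4 windows, each of a different gene: Tnfaip3 and Icam1 with 2 each, Tnip3 and Tnfaip2 with 1 each. The letters were chosen with these promoters known, so these 4 windows cannot be weighed against the shares of all windows. The Tnfaip3 matches lie at its upstream start, and the window of its other start held none. Stretches before the start of these 4 genes are printed because they hold the matches: 250 bases for Tnip3 and Icam1, and 30 bases around the matches for Tnfaip3 and Tnfaip2, whose genes begin further upstream in the deposited table than in RefSeq. Capitals mark the matches, which read GGNNTTTCC where the motif lies on the opposite strand.
Tnfaip3, chr10:19015411-19015440, minus strand: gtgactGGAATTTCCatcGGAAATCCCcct
Tnip3, chr6:65590148-65590397, plus strand: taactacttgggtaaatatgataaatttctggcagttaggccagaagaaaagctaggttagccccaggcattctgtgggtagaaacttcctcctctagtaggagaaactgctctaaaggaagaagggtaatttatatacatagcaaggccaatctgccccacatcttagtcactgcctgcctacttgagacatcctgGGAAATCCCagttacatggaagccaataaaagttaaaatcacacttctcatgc
Tnfaip2, chr12:111442563-111442592, plus strand: cgtccgccagcGGATTTTCCgcggttgcgg
Icam1, chr9:21015690-21015939, plus strand: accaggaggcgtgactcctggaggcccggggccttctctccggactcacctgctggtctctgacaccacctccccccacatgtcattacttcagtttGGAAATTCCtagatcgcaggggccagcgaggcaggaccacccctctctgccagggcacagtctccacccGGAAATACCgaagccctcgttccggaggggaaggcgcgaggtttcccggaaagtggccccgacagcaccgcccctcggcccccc
In Tnfaip3 the matches begin 24 and 12 bases before the start, and the sequence GGAAATCCC of the nearer one is also that of Tnip3, 53 bases before its start. The match in Tnfaip2 begins 87 bases and those in Icam1 153 and 84 bases before the start. A match describes these letters only, and for the 6 genes without one these letters are not in this window. Other forms of the κB motif were not searched. The Tnip1 window, for example, holds gggaattccc, which these letters do not match.

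Total counts ran from 16865591 to 23741079 per library, and no pair of libraries was identical. Of 8 macrophage markers 7 were in the table and summed to 15487 to 23667 CPM, counts relative to a library total that is multiplied by its TMM scaling factor. Summed markers reached at most 11.01 CPM for 7 neutrophil genes, of which Ngp was highest with up to 4.57 CPM, 3.90 CPM for 5 B cell genes, mostly Cd79b, and 0.286 CPM for 6 T and NK cell genes. Their defining markers Ly6g, Pax5, Cd3e, Cd3g and Ncr1 had no count in any library. Smad7 was at 19.7, 14.8, 10.8 and 10.3 CPM in KO TGF-β1 libraries, against 37.3, 40.9, 45.6 and 58.3 CPM in fl/fl TGF-β1 libraries. Without TGF-β1 it was at 5.87, 1.28, 1.64 and 2.00 CPM in KO libraries, against 3.89, 5.24, 6.03 and 4.80 CPM in fl/fl libraries. The library labelled KO untreated replicate 1, the first of these KO values, thus lay within the fl/fl range, and it also lay with the treated libraries in its response genes. A TGF-β1 score, built from genes that responded in the fl/fl libraries, with Smad7 and the 10 genes left out, was 1.14 in it, within the 1.13 to 1.60 of the 8 treated libraries and above the -0.88 to -0.64 of the other 7 untreated ones. For all 10 genes that library lay within the range of the 8 treated libraries, and for 9, all but Tnip1, it lay outside the range of the other 7 untreated libraries. These 2 ranges were apart for only 4 of the 10, Tnip3, Birc3, Tnfrsf1a and Tnfaip2. For the rest they overlapped, so a place in the treated range says less. The share of all tested genes placed likewise was not counted. Results of the 10 genes in KO are therefore given with it and without it, from fits of all 16 libraries and of 15.

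Ranked per gene length, as FPKM (fragments relative to both gene length and total), the type 2 TNF receptor gene Tnfrsf1b and Tnfaip2 stood highest in every group, and the A20 gene was near the bottom. In KO TGF-β1 libraries Tnfrsf1b averaged 376 ± 67.6 and Tnfaip2 188 ± 3.36 FPKM, with no overlap of the libraries, while in fl/fl untreated libraries they averaged 306 ± 30.6 and 279.8 ± 21.6 FPKM and overlapped (SD, n = 4 each). Next came Tnfrsf1a, Tnip1, Icam1, Birc3 and Sod2, with group means from 25.3 to 81.5 FPKM, among which Tnip1, Icam1 and Birc3 lay within their spread of each other in fl/fl untreated libraries, at 55.1 ± 6.82, 58.9 ± 7.85 and 55.0 ± 8.16 FPKM. Tnip3, Tnfaip3 and Traf1 were lowest, in that order, in every group. In KO TGF-β1 libraries they averaged 6.89 ± 1.33, 4.30 ± 0.431 and 1.20 ± 0.578 FPKM, and in fl/fl untreated libraries 23.1 ± 3.57, 6.80 ± 1.64 and 2.22 ± 0.774 FPKM. Traf1, at 32 to 383 counts per library, has the widest counting error, and Tnfrsf1b, at 17604 to 38552 counts, the narrowest.

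**Figure D1:**
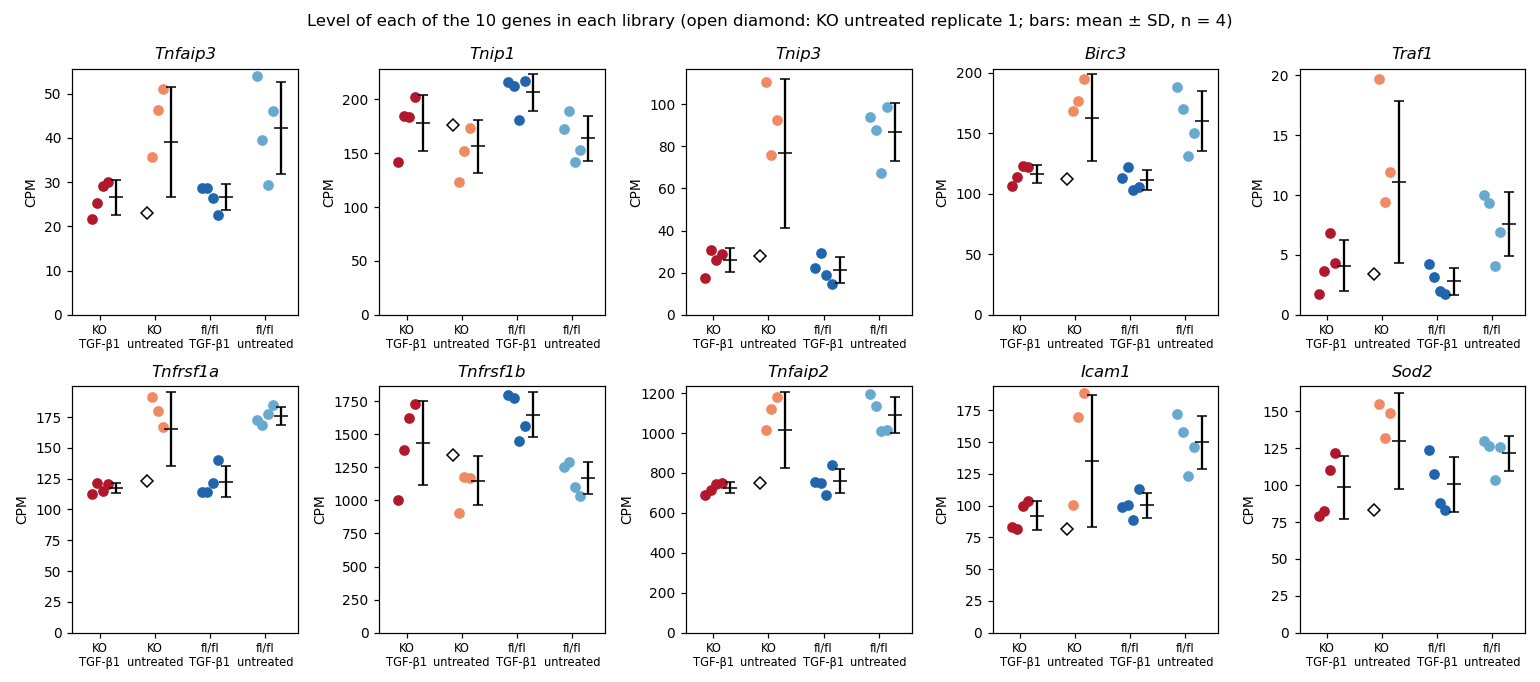
Level of each of the 10 genes in CPM (vertical axes, from 0) in every library of the 4 groups, with the mean and SD of 4 libraries beside the points. The open diamond is KO untreated replicate 1, which lies within the range of the TGF-β1 libraries in all 10 panels. That range is apart from the other 7 untreated libraries in only 4 of them. Tnip3 shows TGF-β1 libraries at 14.8 to 30.8 CPM below the other 7 untreated libraries at 67.5 to 110.4 CPM.

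With TGF-β1, 8 of the 10 genes had a negative log2 change in each genotype. How many passed the test depended on which libraries the fit held. In KO macrophages 3 of 10 fell, none rose and 7 did not pass an adjusted p of 0.05 over all 16 libraries, where 2.97% of all tested genes were called lower and 2.19% higher. When the fit held only KO libraries, all 3 calls were lost, with log2 changes of -1.54 for Tnip3 (edgeR adjusted p = 0.167), -0.48 for Tnfrsf1a (0.182) and -0.47 for Tnfaip2 (0.198). Without KO untreated replicate 1, 8 of 10 fell and none rose, where 6.88% of tested genes were called lower and 8.33% higher. In fl/fl macrophages 5 of 10 fell and Tnfrsf1b rose over all 16 libraries, where 7.61% of tested genes were called lower and 7.87% higher. In the fit without the doubted library, which shares its estimate of the spread with every group, 7 fell and 1 rose in fl/fl, where 9.23% were called lower and 8.91% higher. The median log2 fold change of the 10 genes was -0.49 in KO and -0.52 in fl/fl, beside -0.03 and -0.01 over all tested genes, and in KO it was -0.59, beside -0.01, without the doubted library. In fl/fl the 1030 higher and 995 lower calls over all genes became 875 and 1310 with library totals in place of TMM factors and 843 and 1345 with limma on FPKM. In KO the 287 higher and 389 lower calls became 463 and 344 with limma on FPKM. The labels do not say whether libraries of a group came from separate mice, so the p-values measure the spread between these libraries, which may be technical. In whole cultures less RNA per cell and fewer cells of a type cannot be told apart.

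**Figure D2:**
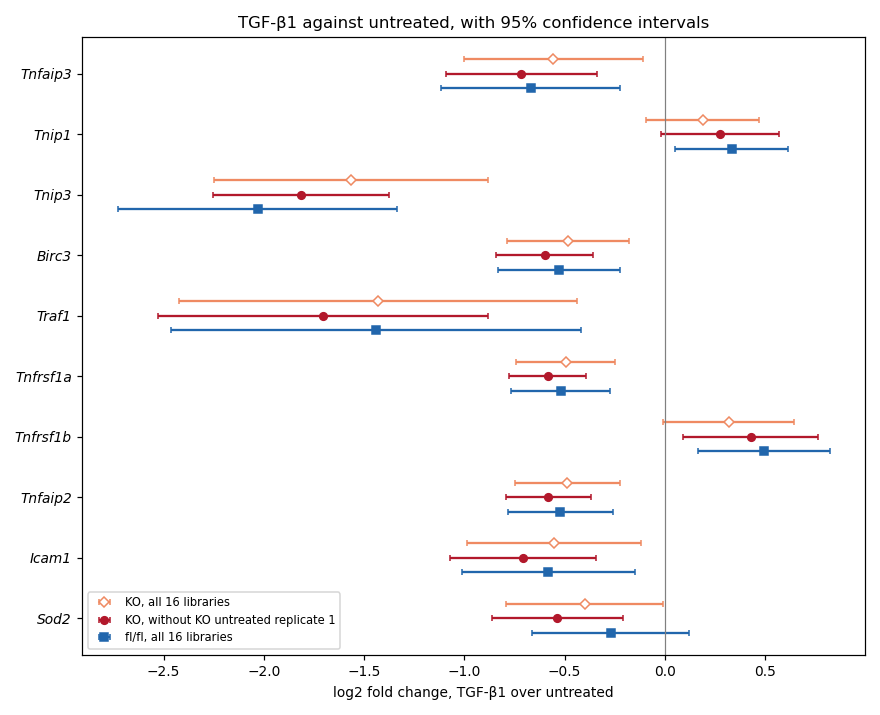
Log2 fold change of each gene with TGF-β1 over untreated (horizontal axis) with its 95% confidence interval from the edgeR fit, for KO over all 16 libraries, KO without KO untreated replicate 1, and fl/fl over all 16 libraries. Tnip3, at -1.57, -1.81 and -2.03, lies farthest from 0, and Tnip1 and Tnfrsf1b lie on the positive side.

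Within the A20 complex, Tnip3 showed the deepest fall of the 10 genes by its estimate. In KO Traf1 was close to it, at -1.43 ± 0.47 log2 over all 16 libraries and -1.70 ± 0.39 without the doubted library (SE). The genes were not tested against each other. Tnip3 encodes ABIN-3, a TNIP protein that binds A20 and is induced by inflammatory stimuli. It was at 17.7, 30.8, 26.2 and 29.0 CPM in KO TGF-β1 libraries, against 28.0, 110.4, 76.1 and 92.4 CPM in KO untreated libraries. The groups overlapped through KO untreated replicate 1, the first value, and did not overlap without it. Its fl/fl values were 22.1, 29.4, 18.9 and 14.8 CPM with TGF-β1, against 94.1, 87.8, 67.5 and 98.6 CPM untreated, and every treated library lay below every untreated one. Tnip3 was 2.96-fold lower in KO with TGF-β1 than without, a log2 change of -1.57 ± 0.32 (SE; edgeR adjusted p = 0.0181), and 3.52-fold lower without the doubted library (-1.81 ± 0.21, edgeR adjusted p = 3.95e-06). Tnip3 was 4.09-fold lower in fl/fl (-2.03 ± 0.33, edgeR adjusted p = 0.00109), and the call held in all 16 fits that left out 1 library. Without the doubted library Tnip3 was 4.10-fold lower in fl/fl (-2.03 ± 0.20, edgeR adjusted p = 5.53e-07). In KO the call was lost without KO TGF-β1 replicate 3 or 4, and also without KO untreated replicate 2 or 4, with a highest adjusted p of 0.0660 by edgeR.

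Tnfaip3, the A20 gene itself, was at 21.6, 25.4, 29.2 and 30.03 CPM in KO TGF-β1 libraries, against 23.1, 35.7, 46.3 and 51.1 CPM in KO untreated libraries. In fl/fl macrophages the values were 28.8, 28.6, 26.3 and 22.5 CPM with TGF-β1, against 54.0, 39.5, 29.4 and 46.1 CPM untreated. Untreated libraries of fl/fl all lay above the treated ones, replicate 3 only just, and in KO only replicate 1 lay among the treated ones. In KO the change did not pass over all 16 libraries, at -0.56 ± 0.21 log2 (SE; edgeR adjusted p = 0.151), and Tnfaip3 fell by 0.72 on the log2 scale without the doubted library (edgeR adjusted p = 0.00894). In fl/fl Tnfaip3 fell by 0.67 on the log2 scale, to 0.629 of the untreated level (95% confidence interval 0.461 to 0.857; edgeR adjusted p = 0.0398). That call is a narrow one. It was lost with no filter on low counts (edgeR adjusted p = 0.0539) and with the replicate number as a block over all libraries (edgeR adjusted p = 0.0672), and it held with the number as a block within each genotype, an alternative chosen after seeing the data (edgeR adjusted p = 0.0130). Of the fits with 1 library left out, 7 of 16 lost it, those without fl/fl untreated replicate 1, 2 or 4 or without any one of the 4 fl/fl TGF-β1 libraries, and its highest adjusted p by edgeR was 0.139.

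Tnip1 encodes ABIN-1, the widely expressed TNIP protein that links A20 to ubiquitin chains, and its values stood apart from those of Tnip3 in direction. It was at 142, 184, 184 and 202 CPM in KO TGF-β1 libraries, against 176, 124, 152 and 174 CPM in KO untreated libraries. Treated fl/fl libraries were at 216, 213, 181 and 217 CPM, against 173, 189, 142 and 153 CPM in untreated ones. Groups overlapped in both genotypes, and the differences of 0.19 ± 0.13 log2 in KO (SE; edgeR adjusted p = 0.554) and 0.33 ± 0.13 log2 in fl/fl (edgeR adjusted p = 0.108) did not pass. Without the doubted library Tnip1 differed by 0.28 ± 0.14 log2 in KO (SE; edgeR adjusted p = 0.238), again short of the threshold. Its 95% intervals ran from -0.02 to 0.57 in KO in that fit and from 0.05 to 0.62 in fl/fl over all 16 libraries.

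Birc3 and Traf1 encode partners at the receptor: cIAP2, a ubiquitin ligase that adds chains to the TNF receptor complex, and TRAF1, an adaptor that binds TRAF2 and the IAP ligases. Birc3 was at 107, 114, 123 and 122 CPM in KO TGF-β1 libraries, against 112, 168, 177 and 195 CPM in KO untreated libraries. The fl/fl libraries had 113, 122, 104 and 106 CPM with TGF-β1, against 189, 170.3, 132 and 150.3 CPM untreated. Leaving out KO untreated replicate 1, no treated library reached an untreated one in either genotype. Birc3 differed by -0.48 ± 0.14 log2 in KO over all 16 libraries, short of the threshold (SE; edgeR adjusted p = 0.0616) but past it with the replicate block within each genotype (edgeR adjusted p = 0.0317), and fell by 0.60 without the doubted library (edgeR adjusted p = 0.00101). In fl/fl it fell by 0.53 on the log2 scale (edgeR adjusted p = 0.0188), and 2 fits lost that call, those without fl/fl untreated replicate 1 and without fl/fl TGF-β1 replicate 3, at up to 0.0672 by edgeR.

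Traf1 had the lowest level and the widest spread. It was at 1.72, 3.63, 6.80 and 4.30 CPM in KO TGF-β1 libraries, against 3.39, 19.7, 9.43 and 11.9 CPM in KO untreated libraries. Its fl/fl values were 4.25, 3.19, 1.97 and 1.77 CPM with TGF-β1, against 9.99, 9.32, 4.08 and 6.94 CPM untreated. KO groups overlapped only through replicate 1 of the untreated libraries, and in fl/fl 1 treated library lay just above the lowest untreated one. Differences were large and uncertain: -1.43 ± 0.47 log2 in KO (SE; edgeR adjusted p = 0.0902) and -1.44 ± 0.48 in fl/fl (edgeR adjusted p = 0.0542), neither past the threshold over all 16 libraries. With the replicate number as a block within each genotype Traf1 fell in both, by 1.35 in KO (edgeR adjusted p = 0.0169) and by 1.44 in fl/fl (edgeR adjusted p = 0.00470). Without the doubted library Traf1 fell in both genotypes, by 1.70 on the log2 scale in KO (edgeR adjusted p = 0.00467) and by 1.45 in fl/fl (edgeR adjusted p = 0.0120).

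In fl/fl macrophages the 2 TNF receptor genes changed in opposite directions. Tnfrsf1a encodes TNFR1, the widely expressed receptor whose death domain starts both NF-κB and cell death signalling. It was at 113, 121, 115 and 121 CPM in KO TGF-β1 libraries, against 123, 192, 180.3 and 167 CPM in KO untreated libraries. In fl/fl macrophages the values were 114, 114, 121 and 140.4 CPM with TGF-β1, against 173, 168, 177 and 185 CPM untreated. Treated and untreated libraries did not overlap in either genotype, and this was the 1 gene of the 10 whose KO groups were apart with replicate 1 included, where 3.06% of all tested genes were lower and 2.98% higher in every treated KO library. Tnfrsf1a fell by 0.50 on the log2 scale in KO (edgeR adjusted p = 0.0259), by 0.58 without the doubted library (edgeR adjusted p = 1.41e-04) and by 0.52 in fl/fl (edgeR adjusted p = 0.00589). In fl/fl the call held in all 16 fits with 1 library left out. In KO it was lost in 7, those without KO untreated replicate 2, 3 or 4 or without any one KO TGF-β1 library, at up to 0.103 by edgeR.

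Tnfrsf1b encodes TNFR2, the receptor without a death domain that is found mainly on immune and endothelial cells and signals through TRAF2, cIAPs and TRAF1. It was at 1005, 1382, 1622 and 1726 CPM in KO TGF-β1 libraries, against 1347, 904, 1177 and 1172 CPM in KO untreated libraries. Treated fl/fl libraries were at 1798, 1777, 1448 and 1562 CPM, against 1254, 1289, 1102 and 1035 CPM in untreated ones. Treated fl/fl libraries all lay above untreated ones, and in KO the treated replicate 1 lay below 3 of the 4 untreated libraries. Tnfrsf1b rose by 0.49 ± 0.16 log2 in fl/fl (SE; edgeR adjusted p = 0.0397), or 1.41-fold with a 95% interval of 1.12 to 1.77. In KO the difference was 0.32 ± 0.16 log2 (edgeR adjusted p = 0.305) and, without the doubted library, 0.43 ± 0.16 (edgeR adjusted p = 0.0884). The fl/fl call was lost in 10 of the 16 fits with 1 library left out, at up to 0.117 by edgeR: those without any one fl/fl untreated library, fl/fl TGF-β1 replicate 1, 2 or 4, KO TGF-β1 replicate 2, or KO untreated replicate 3 or 4. Levels of Tnfrsf1b ran against the TMM scaling factor, with Pearson's r = -0.85 over 16 libraries and -0.93 for deviations from group means over 15. Such deviations also ran against the factor in the other genes, from -0.72 for Sod2 to -0.35 for Tnfaip2, except Tnfrsf1a at 0.24. Over 16 libraries Tnip1 was at -0.79 and the rest lay between -0.11 and 0.32. Those points share the factor in their denominator. The KO TGF-β1 replicate 1 library had the highest factor, 1.09, and the lowest Tnfrsf1b and Tnip1 of its group, while the fl/fl TGF-β1 libraries had factors from 0.942 to 0.989. With library totals in place of the factors, an alternative chosen after seeing the data, the fl/fl difference was 0.44 log2 (edgeR adjusted p = 0.0354). With the replicate number as a block over all libraries the call was lost at 0.49 log2 (edgeR adjusted p = 0.0766), and with the block within each genotype it held (edgeR adjusted p = 0.0414).

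The ratio of Tnfrsf1b to Tnfrsf1a FPKM in the same library, which does not depend on library scaling, was 5.04, 6.42, 7.97 and 8.08 in KO TGF-β1 libraries, against 6.18, 2.67, 3.69 and 3.96 in KO untreated libraries. The fl/fl ratio was 8.87, 8.78, 6.74 and 6.28 with TGF-β1, against 4.09, 4.33, 3.51 and 3.16 untreated. Every treated library lay above every untreated library except KO untreated replicate 1, so that a treated macrophage culture held 5.04 to 8.87 times as much Tnfrsf1b as Tnfrsf1a transcript, against 2.67 to 4.33 times in the other 7 untreated cultures. The ratio averaged 6.88 ± 1.44 in KO TGF-β1 libraries (SD, n = 4) and 3.44 ± 0.682 in KO untreated libraries without replicate 1 (SD, n = 3). It averaged 7.67 ± 1.35 in fl/fl TGF-β1 libraries and 3.77 ± 0.534 in fl/fl untreated libraries (SD, n = 4 each). These ratios are a description, with no test.

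**Figure D3:**
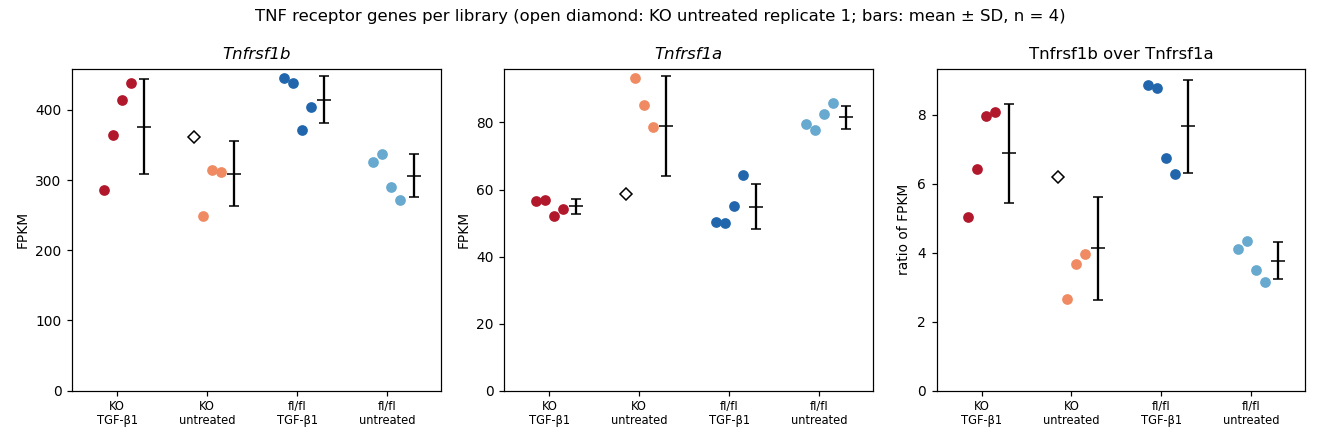
FPKM of Tnfrsf1b and of Tnfrsf1a and the ratio of both (vertical axes, from 0) in every library of the 4 groups, with mean and SD of 4 libraries. The ratio is 5.04 to 8.87 in TGF-β1 libraries and 2.67 to 4.33 in untreated ones other than KO untreated replicate 1 (open diamond), which is at 6.18.

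Of the 3 TNF-inducible genes, Tnfaip2 fell most uniformly. Tnfaip2, also called M-Sec, is known for its part in membrane nanotubes between macrophages. It was at 691, 714, 744 and 751 CPM in KO TGF-β1 libraries, against 749.9, 1013, 1121 and 1182 CPM in KO untreated libraries. The fl/fl libraries had 756, 751, 689 and 841 CPM with TGF-β1, against 1193, 1136, 1011 and 1017 CPM untreated. The treated libraries reached at most 841 CPM, against at least 1011 CPM in the untreated libraries other than KO untreated replicate 1. Tnfaip2 fell by 0.49 on the log2 scale in KO (edgeR adjusted p = 0.0331), by 0.58 without the doubted library (edgeR adjusted p = 3.88e-04) and by 0.52 in fl/fl (edgeR adjusted p = 0.00807). The fl/fl call held in all 16 fits with 1 library left out. The KO call was lost in 9 of them, those without KO untreated replicate 2, 3 or 4, any one KO TGF-β1 library, or fl/fl untreated replicate 2 or 3, at up to 0.142 by edgeR.

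Icam1 encodes the adhesion molecule ICAM-1, a ligand of leukocyte integrins. It was at 82.99, 81.4, 100.01 and 104 CPM in KO TGF-β1 libraries, against 81.7, 100.3, 170.0 and 188 CPM in KO untreated libraries. Its fl/fl values were 98.7, 100.2, 88.7 and 113 CPM with TGF-β1, against 172, 158, 123 and 146 CPM untreated. The fl/fl groups did not overlap, and in KO the untreated replicates 1 and 2 both lay within the treated range. The difference was -0.55 ± 0.21 log2 in KO (SE; edgeR adjusted p = 0.139) and -0.58 ± 0.21 in fl/fl (edgeR adjusted p = 0.0656), and neither passed. With the replicate block within each genotype Icam1 fell in fl/fl by 0.58 (edgeR adjusted p = 0.0139). Without the doubted library Icam1 fell by 0.71 in KO (edgeR adjusted p = 0.00762) and by 0.59 in fl/fl (edgeR adjusted p = 0.0156).

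Sod2 encodes the mitochondrial superoxide dismutase. It was at 79.0, 82.4, 111 and 122 CPM in KO TGF-β1 libraries, against 83.03, 155, 132 and 149 CPM in KO untreated libraries. In fl/fl macrophages the values were 124, 107, 88.2 and 83.4 CPM with TGF-β1, against 129.6, 127, 104 and 126 CPM untreated. The fl/fl groups overlapped and the KO groups did so through replicate 1. Sod2 differed by -0.27 ± 0.19 log2 in fl/fl (SE; edgeR adjusted p = 0.380) and by -0.40 ± 0.19 in KO (edgeR adjusted p = 0.270), and it fell by 0.54 in KO without the doubted library (edgeR adjusted p = 0.0229). In fl/fl it did not pass in that fit either (edgeR adjusted p = 0.226), and the difference between the genotypes was itself not past the threshold.

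Treated and untreated libraries did not overlap for 6 lower genes and 1 higher gene of the 10 in fl/fl, where 12.5% and 11.4% of all tested genes did so. In KO without replicate 1 this held for 7 lower genes, where 12.6% of tested genes did so, and for no higher gene, where 11.5% did. Across the 16 libraries the 8 genes other than Tnip1 and Tnfrsf1b went up and down together, with Pearson's r of log2 CPM from 0.63 to 0.94 and a median of 0.85 over their 28 pairs. Tnip1 and Tnfrsf1b had r = 0.93 with each other and -0.70 to -0.12 with the other 8. Once the mean of each group was taken out and KO untreated replicate 1 left aside, the 28 pairs ran from -0.43 to 0.84 with a median of 0.50. The 16 pairs of Tnip1 or Tnfrsf1b with the rest then had a median of 0.62, while Tnfrsf1a was at or below 0.00 with all 9 others. These points share treatment, depth and scaling factor, and no p is attached. Summed markers of endothelial cells also differed with treatment: 85.1 to 131 CPM in KO TGF-β1 libraries, against 36.4 to 72.8 CPM in KO untreated libraries without replicate 1, and 106 to 150.4 CPM in fl/fl TGF-β1 libraries, against 73.2 to 86.4 CPM in fl/fl untreated libraries. Most of that was Vwf, at 24.0 to 137 CPM, and Kdr was at 5.64 to 20.2 CPM. Cdh5, Tie1 and Pecam1 reached at most 1.61, 1.67 and 1.95 CPM. The part of these endothelial markers in the results was not tested.

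No gene of the 10 passed the test between KO and fl/fl macrophages. With TGF-β1 the log2 differences of KO over fl/fl ran from -0.21 for Tnip1 to 0.56 for Traf1, with edgeR adjusted p-values from 0.877 upwards, in a comparison that called 5 of all tested genes (0.0382%). Untreated they ran from -0.18 for Tnip3 to 0.55 for Traf1, with edgeR adjusted p-values from 0.668 upwards, where 6 genes were called (0.0459%). Of the 10 genes 0 had an unadjusted p below 0.05 in either comparison, beside 734 and 1421 of all tested genes, and DESeq2 likewise called 0 of the 10 while calling 24 and 61 genes. Without the doubted library Traf1 alone had an unadjusted p of 0.0437 by edgeR in untreated cells, at 0.83 ± 0.38 log2 (SE; edgeR adjusted p = 0.408), and the only gene whose untreated KO and fl/fl libraries did not overlap was Sod2, higher in KO at 132 to 155 CPM, against 104 to 129.6 CPM in fl/fl (0.24 ± 0.15 log2, edgeR adjusted p = 0.552), where 7.18% of tested genes were higher in every KO library. In that fit 8 and 13 of all tested genes were called with and without TGF-β1 (0.0612% and 0.0994%).

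The size of difference that the data leave possible was narrower for some genes than for others. For Tnfaip3, KO over fl/fl without TGF-β1 had a 95% interval of 0.799 to 1.35-fold in the fit without the doubted library, and with TGF-β1 one of 0.788 to 1.29-fold. For Tnfrsf1a these intervals were 0.880 to 1.15-fold and 0.851 to 1.09-fold, and for Tnfaip2 0.862 to 1.16-fold and 0.839 to 1.10-fold. Traf1 had intervals of 1.02 to 3.11-fold and 0.844 to 2.62-fold, which leave room for a large difference. Smad7 itself, in the same fit, fell in KO by 1.63 on the log2 scale untreated (edgeR adjusted p = 0.0322) and by 1.70 with TGF-β1 (edgeR adjusted p = 8.9e-04), and over all 16 libraries it passed in neither (edgeR adjusted p = 0.423 and 0.122). Its RNA in KO was thus lowered, to 0.324 and 0.308 of the fl/fl level in the same fit, and not absent. TGF-β1 raised it 8.62-fold in KO and 9.06-fold in fl/fl there. Whole-gene counts cannot tell whether the remaining RNA held the floxed part.

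A difference between the genotypes in the response to TGF-β1 passed the test for none of the 10 genes. KO minus fl/fl differences of the log2 response ran from -0.17 for Tnfrsf1b to 0.47 for Tnip3 over all 16 libraries, with a smallest edgeR adjusted p of 0.993, and 0 genes of all tested were called (0%). An unadjusted p below 0.05 was found for 0 of the 10 and for 275 of all tested genes by edgeR, and DESeq2 called 1 gene, none of the 10. Without the doubted library the differences ran from -0.26 for Sod2 to 0.22 for Tnip3. The 95% interval of that difference for Tnip3 was -0.38 to 0.82, so the interval takes in a KO fall that is smaller by up to 0.82 as well as an equal one, and for Tnfaip3 it was -0.56 to 0.47.

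**Figure D4:**
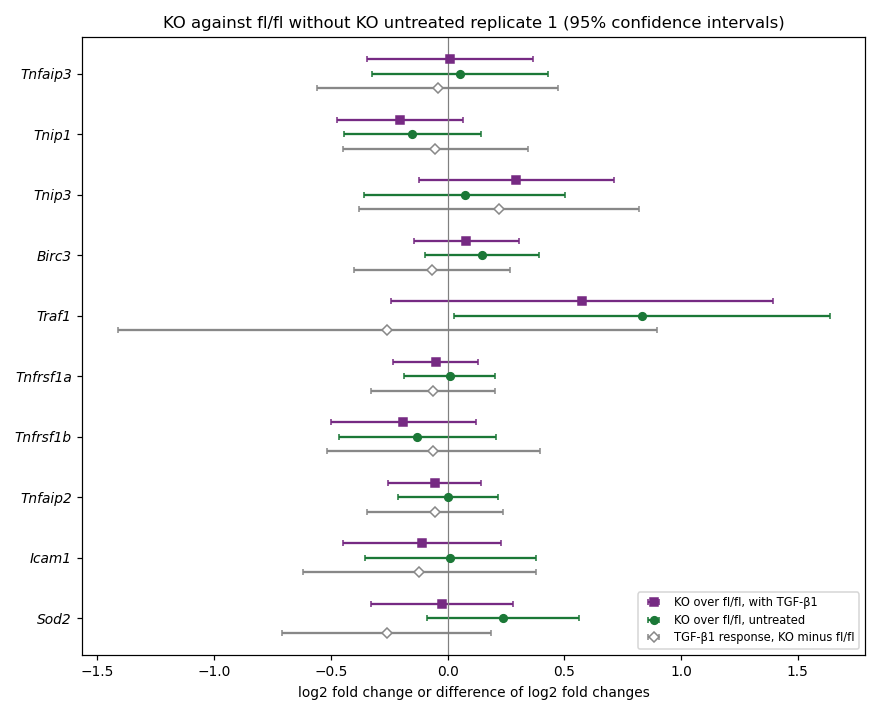
Log2 fold change of KO over fl/fl with TGF-β1 and untreated, and the difference of the log2 TGF-β1 responses (KO minus fl/fl), each with its 95% confidence interval from the edgeR fit without KO untreated replicate 1 (horizontal axis). All intervals include 0 except that of Traf1 in untreated cells, which starts at 0.03 and whose adjusted p is 0.408.

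The genes around the 10 are given as counts to be read against the shares of all tested genes: 2.97% lower and 2.19% higher in KO, 7.61% lower and 7.87% higher in fl/fl, and 6.88% lower and 8.33% higher in KO without the doubted library. Their fl/fl values are from the fit of all 16 libraries. Adjusted p-values of fl/fl and of KO without the doubted library thus rest on different estimates of the spread and do not rank the genotypes. None of the 14 genes of the TNF receptor complex, among them Tradd, Ripk1, Traf2 and Cyld, passed the test with TGF-β1 over all 16 libraries in either genotype, and without the doubted library only Rnf31, the catalytic subunit of the linear ubiquitin ligase, fell in KO (-0.38 ± 0.09 log2 (SE), edgeR adjusted p = 0.00864). Of 10 NF-κB subunits and IκB proteins, 4 fell in KO and 5 in fl/fl, with medians of -0.40 log2 in both, and 6 fell in KO without the doubted library, with a median of -0.52, while none rose. Nfkbie, which encodes the inhibitor IκBε, averaged 20.6 ± 3.37 CPM in KO TGF-β1 libraries (SD, n = 4), against 56.0 ± 10.4 CPM in KO untreated libraries without replicate 1 (SD, n = 3), and 22.0 ± 3.05 CPM in fl/fl TGF-β1 libraries, against 48.5 ± 7.20 CPM in fl/fl untreated libraries (SD, n = 4 each). It fell by 1.41 on the log2 scale in KO (without the doubted library, edgeR adjusted p = 3.34e-06) and by 1.14 in fl/fl (edgeR adjusted p = 0.00331). Nfkbiz, an atypical IκB that promotes some NF-κB targets, fell by 1.36 and 1.20, and Bcl3, a nuclear IκB, by 0.69 and 0.66, in the same fits of KO and fl/fl (edgeR adjusted p from 1.31e-04 to 0.00771). All 3 also passed in KO over all 16 libraries, at -1.21, -1.14 and -0.59 (edgeR adjusted p from 0.0112 to 0.0292).

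Among other receptors of the TNF superfamily 12 of 17 were tested: 1 rose and 2 fell in KO, 1 rose and 6 fell in fl/fl, and 2 rose and 4 fell in KO without the doubted library. Fas, the death receptor, averaged 5.97 ± 0.686 CPM in KO TGF-β1 libraries (SD, n = 4), against 22.8 ± 3.83 CPM in KO untreated libraries without replicate 1 (SD, n = 3). It averaged 5.82 ± 0.214 CPM in fl/fl TGF-β1 libraries, against 15.4 ± 2.98 CPM in fl/fl untreated libraries (SD, n = 4 each). Fas fell by 1.90 on the log2 scale in KO without the doubted library (edgeR adjusted p = 1.39e-07) and by 1.40 in fl/fl (edgeR adjusted p = 0.00415). Tnfrsf14, the herpesvirus entry mediator, fell by 1.23 and 1.30 in the same fits (edgeR adjusted p = 3.79e-06 and 0.00109). Cd40, the costimulatory receptor, fell by 1.29 in KO without the doubted library (edgeR adjusted p = 2.80e-05), and in fl/fl Cd40 fell by 1.37 (edgeR adjusted p = 0.00639). Tnfrsf11a, the receptor RANK, fell by 0.49 and 0.65 in the same fits (edgeR adjusted p = 0.00985 and 0.00627). Over all 16 libraries Fas and Tnfrsf14 passed in KO (edgeR adjusted p = 0.00929 and 0.0176), while Cd40 at -1.01 and Tnfrsf11a at -0.38 did not (0.0699 and 0.171).

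Of 13 kinases between receptor and NF-κB, 2 fell in KO, 3 fell and 1 rose in fl/fl, and 3 fell in KO without the doubted library. Ikbke, a kinase related to the IκB kinases, averaged 55.4 ± 5.06 CPM in KO TGF-β1 libraries (SD, n = 4), against 190.5 ± 22.5 CPM in KO untreated libraries without replicate 1 (SD, n = 3). It averaged 58.0 ± 3.67 CPM in fl/fl TGF-β1 libraries, against 158 ± 18.5 CPM in fl/fl untreated libraries (SD, n = 4 each). Ikbke fell by 1.75 on the log2 scale in KO without the doubted library (edgeR adjusted p = 3.46e-09) and by 1.45 in fl/fl (edgeR adjusted p = 0.00288). Map3k8, the kinase TPL2, fell by 1.00 and 0.92, and Mapk14, the kinase p38α, by 0.75 and 0.74, in those fits (edgeR adjusted p from 5.11e-05 to 0.0128). Over all 16 libraries Ikbke and Mapk14 passed in KO (edgeR adjusted p = 0.0123 and 0.0206), while Map3k8 at -0.82 did not (0.0503). Of 6 genes of the necroptosis and apoptosis arm 1 fell in KO with or without the doubted library and 3 fell in fl/fl; Bid, which carries death receptor signals to mitochondria, fell by 0.87 in KO (without it, edgeR adjusted p = 1.48e-05) and by 1.12 in fl/fl (edgeR adjusted p = 7.22e-04). In fl/fl Mlkl, the effector of necroptosis, fell by 0.77 (edgeR adjusted p = 0.0171).

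Of 10 A20 partners and related ubiquitin editors, 1 rose in KO and 1 in fl/fl, and 2 rose and 1 fell in KO without the doubted library. Optn, the ubiquitin-binding adaptor optineurin, rose by 0.69 ± 0.13 log2 in KO without the doubted library (SE; edgeR adjusted p = 8.19e-04) and by 0.48 ± 0.13 in fl/fl (edgeR adjusted p = 0.0173). Rnf11, a subunit of the A20 complex, rose by 0.40 in KO without the doubted library (edgeR adjusted p = 0.0210), and Usp18, an interferon-induced protease, fell by 1.63 (edgeR adjusted p = 1.80e-04). Of 6 other TRAF family genes none was called in KO, 1 rose and 1 fell in fl/fl, and 2 rose in KO without the doubted library. Traf3, a brake on alternative NF-κB signalling, rose by 0.75 in KO (without that library, edgeR adjusted p = 6.74e-04) and by 0.71 in fl/fl (edgeR adjusted p = 0.00555). Traf6, the adaptor of Toll-like receptors, rose by 0.41 in KO without it (edgeR adjusted p = 0.0130), and Tank, a TRAF-binding protein, fell by 0.63 in fl/fl (edgeR adjusted p = 0.0304). Over all 16 libraries Optn passed in KO, at 0.55 (edgeR adjusted p = 0.0260), while Rnf11, Usp18, Traf3 and Traf6 did not (edgeR adjusted p = 0.279, 0.0710, 0.0623 and 0.265).

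For the ligand and its shedding 3 of 4 genes were tested, and none passed in KO and 1 rose in fl/fl over all 16 libraries. Tnf itself averaged 12.3 ± 3.48 CPM in KO TGF-β1 libraries (SD, n = 4), against 22.9 ± 7.26 CPM in KO untreated libraries without replicate 1 (SD, n = 3). In fl/fl it averaged 11.1 ± 1.67 CPM with TGF-β1, against 15.3 ± 3.80 CPM untreated (SD, n = 4 each). Tnf fell by 0.86 on the log2 scale in KO without the doubted library (edgeR adjusted p = 0.0246). Rhbdf2, which carries the TNF-shedding protease to the cell surface, rose by 0.46 in KO (without that library, edgeR adjusted p = 0.0138) and by 0.57 in fl/fl (edgeR adjusted p = 0.00438). Among 9 superoxide dismutases and relatives of Icam1, of which 6 were tested, none passed in KO and 1 rose in fl/fl, and 1 rose and 1 fell in KO without the doubted library. Itgal, a subunit of the integrin that binds ICAM-1, rose by 1.68 in KO (without that library, edgeR adjusted p = 2.95e-04) and by 1.38 in fl/fl (edgeR adjusted p = 0.0127), while Vcam1, another adhesion ligand, fell by 1.83 in KO without it, at a level of at most 2.72 CPM in any library (edgeR adjusted p = 0.0371). Over all 16 libraries Tnf, Rhbdf2, Itgal and Vcam1 did not pass in KO (edgeR adjusted p = 0.261, 0.135, 0.0545 and 0.183). No gene of these 9 lists passed in KO against fl/fl, with or without TGF-β1, or for the difference between the responses, in either fit.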

How the data were processed

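Polyadenylated RNA of 16 libraries was sequenced as 150 bp pairs. The submitters' processing notes list Cufflinks 2.1.1, HTSeq 0.6.1 and TopHat2 2.0.9 and the builds GRCm38.p6 and mm10, without roles. Counting options are not given in the sources used here. The labels speak of 8 cDNA libraries but list 16. The deposited table holds the authors' raw counts per gene. The deposited FPKM equal those counts over gene length and library total for 100% of positive values, within 0.1%.

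Counts were fitted in edgeR 4.0.16 (R 4.3.3) with TMM scaling, filterByExpr, a mean per group and robust quasi-likelihood tests, adjusted by Benjamini-Hochberg over 13080 genes (threshold 0.05). CPM are relative to TMM-scaled totals. The fit was repeated on the same genes without KO untreated replicate 1. Alternatives were RLE scaling, no filter, DESeq2 1.42.0, the labels' replicate number as a block, the compared libraries alone, limma 3.58.1 on log2(FPKM + 1), each library left out, and, added after seeing the data, library totals and a replicate block within each genotype. Deviations from group means of same-numbered treated and untreated libraries correlated over 0.1 in 4 of 4 fl/fl pairs (0.123 to 0.181). They did so in 2 of 4 KO pairs and in 0 of 16 same-numbered pairs across genotypes. Unlike-numbered fl/fl pairs ran from -0.216 (TGF-β1 replicate 2 with untreated replicate 4) to 0.200 (TGF-β1 replicate 2 with untreated replicate 1). Some unlike numbers thus correlated as highly as like ones, and a pairing by single number was not shown. A coarser split was seen in both genotypes. Treated and untreated libraries correlated positively, at 0.058 to 0.239, where both were numbered 1 or 2 or both 3 or 4. Every pair across these sets was negative, at -0.237 to -0.044, though deviations from a group mean offset each other. The main fit has no term for this split, and its source was not tested. The labels do not say what a number marks. Reads carry no molecular identifiers.

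The 10 genes, the lists and the rule for named genes were chosen with earlier results of these data known. Named genes are the 10, Smad7, up to 3 passing genes per list with the lowest adjusted p in fl/fl and in KO without replicate 1, and the 5 genes closest to Tnfaip3 and to Tnip3. A gene that this rule names is not reported here. The TGF-β1 score is the mean log2 CPM of 1166 rising minus 1028 falling genes of a fit to the fl/fl libraries, Smad7 and the 10 genes left out.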

Additional observations from a re-analysis of the deposited data

Results flagged for a closer look

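Dixon's test for a value far from the other 3 of its group was applied to 44 groups, of the 10 genes and Smad7 in each of 4 groups, and it marks about 1 group in 20 by chance. It marked 3. Tnip1 was at 181 CPM in fl/fl TGF-β1 replicate 3, below 213 to 217 CPM in the other 3 libraries of that group. Sod2 was at 104 CPM in fl/fl untreated replicate 3, below 126 to 129.6 CPM in the other 3. Smad7 was at 5.87 CPM in KO untreated replicate 1, above 1.28 to 2.00 CPM in the other 3. The last is the library that lay within the range of the TGF-β1 libraries for all 10 genes, although its Smad7 was below the 10.3 to 19.7 CPM of KO TGF-β1 libraries.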

How the results depend on the processing

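With each library left out in turn, the TGF-β1 comparison called 0 to 8 of the 10 genes and 93 to 1989 of all genes in KO, and 3 to 8 and 1379 to 2372 in fl/fl; the 8 in KO came without KO untreated replicate 1, and the 0 without KO TGF-β1 replicate 3 or 4, or without KO untreated replicate 2 or 4. KO against fl/fl called 4 to 13 genes untreated and 4 to 8 with TGF-β1, and neither these nor the difference of the responses called any of the 10. With only the compared libraries, TGF-β1 in KO called 0 of the 10 and 0 genes. DESeq2 called 5 of the 10 and 1093 genes there, 61 and 24 genes for KO against fl/fl untreated and with TGF-β1, and 1 for the difference of the responses. No filter gave 446 genes for TGF-β1 in KO and 10 for KO against fl/fl untreated. The cause was not tested. RLE scaling, library totals and limma on FPKM kept these counts within 1.5 times.

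Same-numbered libraries correlated over 0.1 only within a genotype. Some unlike-numbered ones did so there too, all of them 1 with 2 or 3 with 4. The replicate number was used as a block over all libraries, as planned. With it 3 of the 10 genes were called in KO, where 662 of the 13080 tested genes were, and 4 in fl/fl, where 1785 were. In fl/fl Tnfaip3 (edgeR adjusted p = 0.0672) and Tnfrsf1b (edgeR adjusted p = 0.0766) were lost. With the replicate block within each genotype 5 of the 10 were called in KO, where 994 of all tested genes were. Birc3 and Traf1 came in addition to the calls of the main fit. In fl/fl 8 of the 10 were called, where 2194 of all tested genes were, with Traf1 and Icam1 in addition. The block within each genotype changed no other call of the 10, and KO against fl/fl cannot be estimated in it.

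Signs turned only for differences between genotypes that passed no test. Tnfaip3 with TGF-β1 was 6.5e-04 log2 over all libraries, -0.0042 with RLE, -0.0045 with DESeq2 and -0.015 with the replicate block. Library totals gave 0.014 for Tnfrsf1b untreated, and 0.0017 for Tnfrsf1a and 0.030 for Sod2 with TGF-β1. Limma on FPKM gave 0.0067 for Tnfrsf1b untreated, 0.0084 for Tnfrsf1a, 0.0028 for Tnfaip2 and 0.026 for Sod2 with TGF-β1, and -0.058 for Traf1 in the difference of the responses. Values that changed sign when 1 library was left out are given as the range over those fits. For KO against fl/fl in untreated cells these were Birc3 from -0.088 to 0.15, Icam1 from -0.37 to 0.011, Sod2 from -0.0070 to 0.24, Tnfaip2 from -0.20 to 0.00037, Tnfaip3 from -0.28 to 0.053, Tnfrsf1a from -0.17 to 0.0098, Tnfrsf1b from -0.13 to 0.071, Tnip1 from -0.15 to 0.024 and Tnip3 from -0.42 to 0.073. For the difference of the responses they were Birc3 from -0.067 to 0.17, Icam1 from -0.12 to 0.26, Tnfaip2 from -0.056 to 0.14, Tnfaip3 from -0.042 to 0.29, Tnfrsf1a from -0.061 to 0.12 and Traf1 from -0.34 to 0.46. With TGF-β1 they were Sod2 from -0.15 to 0.083, Tnfaip3 from -0.071 to 0.092 and Tnfrsf1a from -0.095 to 0.0090. Depth limits Traf1 most.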

Other observations

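Genes with the pattern most like that of the A20 gene over the 16 libraries, by Pearson's r of log2 CPM, were Ddx58, which encodes the RNA sensor RIG-I (r = 0.949), Gm5431 (0.944), Exoc6 (0.943), Gdpd1 (0.943) and Zc3h12c (0.942). Genes most like Tnip3 were the transcription factor gene Ets2 (r = 0.984), the phosphatase gene Ptpn12 (0.978), the endothelin receptor gene Ednrb (0.977), the aryl hydrocarbon receptor gene Ahr (0.975) and Rbpj, a partner of Notch (0.974). All 10 had a negative log2 change with TGF-β1 in fl/fl, from -3.94 for Ednrb to -0.60 for Exoc6. They were picked for likeness to genes that fell there, so this sign is no separate result. The points of each correlation share treatment, depth and scaling factor, and KO untreated replicate 1 is among them.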
